A study of Mus musculus with 3 samples.

Results

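The genes followed were those of matrix Gla protein (Mgp), SPARC, its relative SPARC-like 1 (Sparcl1) and thrombospondins 1 and 2 (Thbs1, Thbs2). With them were CCN1 (Ccn1), tenascin C (Tnc), periostin (Postn), elastin (Eln) and fibulin 5 (Fbln5). All were measured in cells sorted from the mouse kidney by a renin reporter transgene. These 10 genes were taken by platform gene symbol out of 19938 genes, and each was represented by 1 probe set, so none was missing. The samples were YFP-positive cells sorted from the digested kidney cortex of adult male Ren1c-YFP transgenic mice of unspecified strain, Theiler stage 28. All animals drank water with 0.5 mg/ml captopril, which blocks the angiotensin-converting enzyme, and ate low-salt chow for 2 weeks. The group comprised 3 single-colour Affymetrix arrays, replicates 2, 4 and 5, and no control of any kind was analysed here. The values therefore give levels under this treatment and say nothing of what captopril, salt or sorting changed. Samples were not pooled per the labels, but whether 3 different animals were used is not stated there, and p-values cover the spread among these samples alone, which may be technical. The transgene marks cells that use the renin gene; Ren1 itself was not analysed here. The markers below are of other cell types and of mural cells in general, so the purity of the sort was not tested.

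Matricellular proteins are secreted into the extracellular matrix, where most of them act less as scaffold than as regulators: they bind growth factors, integrins and collagen and alter how cells attach and signal. In the vessel wall Mgp restrains calcification, Sparc binds collagen, and thrombospondins, CCN proteins, tenascin C and periostin are known for appearing at sites of injury and remodelling. Eln and Fbln5 belong to the elastic fibre, with elastin as its core protein and fibulin 5 as a protein needed for its assembly.

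Markers of mural cells and of kidney tubule were above background in these samples at shares over the 37.3% of all genes that passed the same test, described below. Smooth muscle markers passed in 10 of 12 cases, pericyte and mesangial markers in 11 of 13, proximal tubule markers in 11 of 11 measured and thick ascending limb markers in 6 of 8. Endothelial markers passed in 8 of 14 cases. Without replicate 2 the count was 4 of 14, against 6051 of all 19938 genes. With the stricter 99th percentile level it was 1 of 14, against 16.6% of all genes. Podocyte markers passed in 2 of 7 measured cases (28.6%) and macrophage markers in 3 of 10 (30%), both under the share of all genes. Acta2, smooth muscle actin, stood at a log2 signal of 12.62 ± 0.06 and Rgs5, a mural cell regulator of G protein signalling, at 12.37 ± 0.10 (mean ± SD, n = 3 here and below). In such mixed samples a member's signal cannot be assigned to a cell type, and fewer cells of a type and less RNA per cell cannot be told apart. A probe set's signal also depends on its probes, so members were not ranked against each other.

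The first comparison asked which members were measured above background. Mgp, Sparc, Sparcl1, Thbs1, Ccn1, Eln and Fbln5 were above it, and Thbs2, Tnc and Postn were not. The background level was the 95th percentile of log2 signals over 1027 olfactory receptor genes, and it was 6.20, 6.32 and 6.50 in replicates 2, 4 and 5. By limma's one-sided test with Benjamini-Hochberg adjustment over all genes at a threshold of 0.05, 7 of 10 members passed, against 37.3% of all genes. The same 7 members exceeded the level on each of the 3 arrays, a property of 41.9% of all genes. The median height above background was 1.57 log2 units over the members and -0.01 over all genes. Set at the 99th olfactory receptor percentile, the level left 5 members called, without Eln and Fbln5, against 16.6% of all genes. A level from keratin-associated protein genes, whose probes were brighter, left 3 members, Mgp, Sparc and Sparcl1, against 3.56% of all genes. Lower levels called 9 members, with Thbs2 and Tnc added: 50% of all genes passed at the 90th olfactory receptor percentile and 67.3% with a level from vomeronasal receptor genes.

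**Figure D1:**
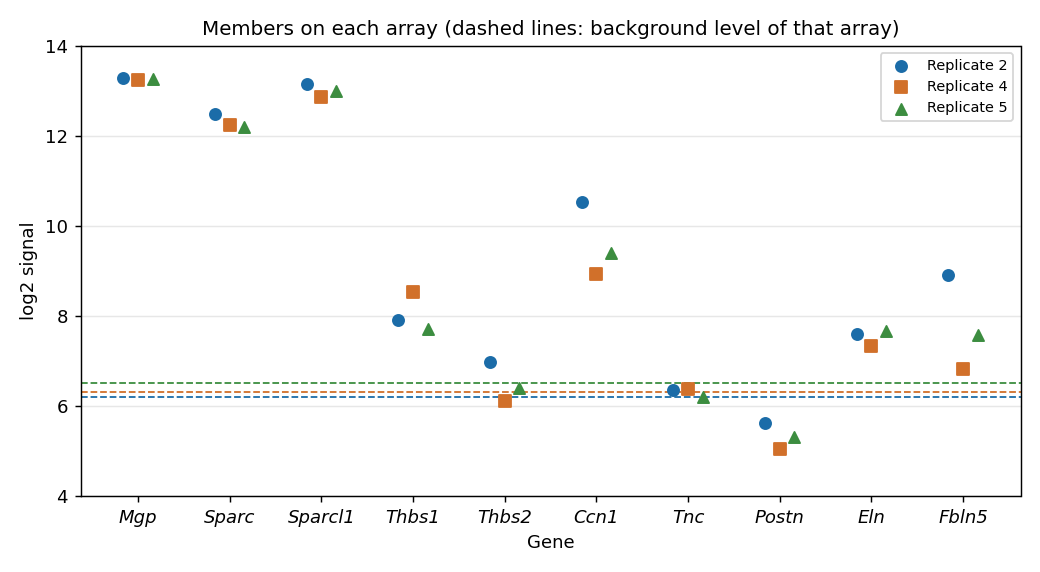
Log2 signal (y axis) of the 10 members (x axis) on the arrays of replicates 2, 4 and 5, each symbol standing for 1 array and each dashed line for that array's background level. Mgp, Sparc and Sparcl1 lie far above the lines, Postn lies under them on all 3 arrays, and the symbols of Ccn1 and Fbln5 are spread furthest apart.

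Mgp encodes a small secreted protein that depends on vitamin K, binds calcium and bone morphogenetic proteins and protects arteries from mineral deposition. Its log2 signal was 13.28, 13.25 and 13.26 in replicates 2, 4 and 5. The arrays lay within 0.04 log2 units of each other, all far above their background levels. Their span was 0.10 after quantile normalization and 0.14 with arrays centred on their medians. The mean of 13.26 ± 0.02 was 6.92 above background (limma 95% interval 6.59 to 7.25, adjusted p = 6.41e-08). The highest signals of any probe set on these arrays were 13.96, 13.92 and 13.90, so Mgp stood near the top of the scale. Spans between arrays were small there in general: the 25 other called genes within 0.5 log2 units of Mgp had a median span of 0.12, against 0.51 for all called genes.

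Sparc, a collagen-binding glycoprotein of basement membranes and remodelling tissue, had log2 signals of 12.49, 12.24 and 12.20 in replicates 2, 4 and 5. Replicate 2 was the highest, by 0.27 over the mean of the other arrays. The mean of 12.31 ± 0.16 stood 5.97 above background (limma adjusted p = 1.31e-07). Sparcl1, also called hevin, is a secreted relative of Sparc. It was measured at 13.16, 12.87 and 12.99 in the same order, with replicate 2 again the highest. Its mean of 13.01 ± 0.15 was 6.67 above background (limma adjusted p = 6.41e-08). Both genes spanned 0.29 log2 units between arrays. For Sparcl1 that span was larger than those of 87.2% of the 47 other called genes of similar signal, and for Sparc larger than those of 60.4% of 111.

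Thrombospondins 1 and 2 are multimeric proteins that inhibit angiogenesis, and Thbs1 in addition activates latent TGF-beta. Thbs1 had log2 signals of 7.92, 8.53 and 7.71 in replicates 2, 4 and 5. It was the only called member that was highest in replicate 4, by 0.71 over the mean of the other arrays. Its mean of 8.05 ± 0.42 was 1.71 above background (limma 95% interval 1.12 to 2.31, adjusted p = 0.000502). Thbs2 had log2 signals of 6.98, 6.12 and 6.40 in the same order. Replicate 2 was above its array's level and replicates 4 and 5 were under theirs. The mean height of Thbs2 was 0.16 (limma 95% interval -0.32 to 0.64, adjusted p = 0.500), and without replicate 2 it was -0.15. Thbs2 was called with the 90th percentile level (height 0.53, limma adjusted p = 0.0354) and with the vomeronasal receptor level (1.06, limma adjusted p = 0.000506). Platelets store thrombospondin 1. Of 7 measured platelet markers 1 was called (14.3%, against 37.3% of all genes), Treml1 (6.92 ± 0.40). The count was 0 without replicate 4 and 2 without replicate 5, against 6400 and 7806 of all 19938 genes. Pf4, platelet factor 4, stood at 5.06 ± 0.19 with a height of -1.28. Whether platelets had a part in the signal of Thbs1 was not tested.

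Tnc and Postn encode adhesion-modulating proteins known from wounds, developing vessels and fibrosis. Tnc had log2 signals of 6.36, 6.38 and 6.20 in replicates 2, 4 and 5, close to the background level on each array. Its mean height was -0.02 (limma 95% interval -0.36 to 0.31, adjusted p = 1). The height of Tnc turned positive and was called with the 90th percentile level (0.34, limma adjusted p = 0.0486) and with the vomeronasal receptor level (0.87, limma adjusted p = 0.000187). Postn was measured at 5.62, 5.04 and 5.31 and lay under the level on all 3 arrays. Its mean height was -1.02 (limma 95% interval -1.35 to -0.68, adjusted p = 1). A signal at or under background gives only an upper bound on the level and does not show that a transcript is absent. Of the 12 fibroblast markers 5 were called (41.7%, close to the 37.3% of all genes), with Cd248 at 9.23 ± 0.45, Gsn at 8.03 ± 0.12 and Col1a2 at 7.81 ± 0.20, while the matrix proteoglycan gene Lum stood at 4.11 ± 0.09.

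Eln, the gene of tropoelastin, had log2 signals of 7.60, 7.33 and 7.66 in replicates 2, 4 and 5. All were above their array's level, and replicate 4 was the lowest. The mean of 7.53 ± 0.18 was 1.19 above background (limma 95% interval 0.73 to 1.65, adjusted p = 0.00089). At the higher, 99th percentile level its height was 0.33 and it was not called (limma adjusted p = 0.253).

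**Figure D2:**
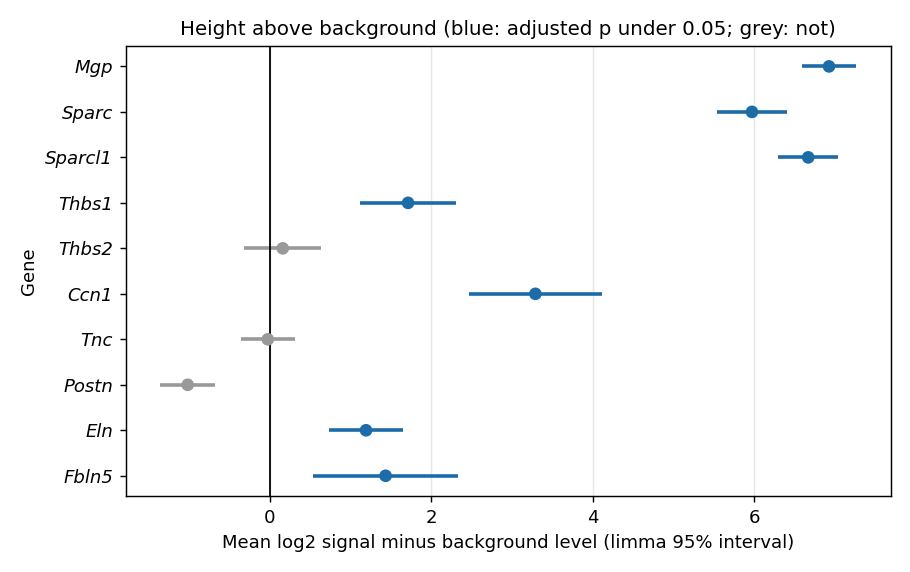
Mean log2 signal minus the background level (x axis) for each member (y axis) over 3 arrays, with points for means and bars for limma 95% intervals. Blue members passed the one-sided test and grey members did not; the intervals of Thbs2 and Tnc include 0 and that of Postn lies under 0.

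Ccn1 and Fbln5 were the members that differed most between the samples. Ccn1 (formerly Cyr61) is an immediate early gene and a target of the YAP coactivator, and its protein binds integrins and heparan sulfate. Fbln5 tethers elastin to cells and to the growing fibre. The 250 bases before each start are shown because these were the members with spans over 1 log2 unit between arrays. They come from RefSeq, build GRCm38.p6, both on the minus strand, and capitals mark the matched motifs.

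Ccn1, chr3:145649986-145650235: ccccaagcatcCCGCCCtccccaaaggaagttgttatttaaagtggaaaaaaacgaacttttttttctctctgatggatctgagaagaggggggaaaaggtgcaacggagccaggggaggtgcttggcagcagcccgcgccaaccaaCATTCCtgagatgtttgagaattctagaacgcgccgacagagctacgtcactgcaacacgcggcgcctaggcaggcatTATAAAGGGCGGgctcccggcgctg

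Fbln5, chr12:101819120-101819369: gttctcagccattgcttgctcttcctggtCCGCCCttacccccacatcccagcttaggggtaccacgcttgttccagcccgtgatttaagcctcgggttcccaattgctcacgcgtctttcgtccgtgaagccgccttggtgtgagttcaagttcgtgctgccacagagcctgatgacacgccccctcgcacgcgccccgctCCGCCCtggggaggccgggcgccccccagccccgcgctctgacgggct

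RefSeq windows, from 250 bases before to 50 after a start, matched 6 of the 10 members by symbol. These were Sparc, Thbs2, Ccn1, Tnc, Postn and Fbln5, and the others were Mgp, Sparcl1, Thbs1 and Eln. The windows were searched on both strands for TATAAA, the core of a TATA box. A second search was for GGAATG, the core bound by TEAD factors, which are the DNA-binding partners of YAP. Further searches were for the GC box GGGCGG, the AP-1 site TGACTCA and the CArG box of serum response factor. Ccn1 had TATAAA from position -25 and GGAATG, on the opposite strand, from position -103, counted from the start. TATAAA was found in 13.6% and GGAATG in 14.7% of all 32851 windows. GGGCGG, held by 35.7% of all windows, occurred in Ccn1 at positions -239 and -19 and in the Fbln5 window shown at -221 and -48. The first GGGCGG base of the downstream Ccn1 match directly follows its TATAAA, without overlap. GGGCGG also occurred in both windows of Tnc, which overlap, at the same genomic site. TATAAA began at -26 in a window of Postn. Further from the start, the same TATAAA of Tnc was counted at -126 and at -205 in its overlapping windows. In Thbs2 TATAAA lay at -126 on the opposite strand. TGACTCA (5.2% of all windows) and the CArG box (1.63%) matched none of the members' windows. A match is a stretch of letters and does not show that a factor was bound.

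Ccn1 had log2 signals of 10.54, 8.94 and 9.41 in replicates 2, 4 and 5. Replicate 2 was the highest and replicate 4 the lowest, 1.60 log2 units or 3.02-fold apart. The mean of 9.63 ± 0.82 was 3.29 above background (limma 95% interval 2.47 to 4.11, adjusted p = 8.5e-05), and without replicate 2 the height was 2.76 (limma adjusted p = 0.000558). Immediate early genes were measured beside it, since digestion and sorting can induce them. Of 18 measured, 11 were called, against 37.3% of all genes. In 12 of them replicate 2 was highest, against 30.5% of all genes and 43.8% of called genes. The median log2 signal of the list was 7.71, 7.14 and 7.16 in replicates 2, 4 and 5, and its summed linear signal was 4720, 3450 and 3211. Hspa1a (9.15 ± 0.58), Dusp1 (8.79 ± 0.65) and Jun (8.35 ± 0.67) were called and Atf3 (5.83 ± 0.11) was under the level. Fos (6.45 ± 0.14), Fosb, Junb, Egr2, Ier2 and Klf4 were not called either. Of the 12, 5 were lowest in replicate 4 as Ccn1 was and 7 were lowest in replicate 5. Dusp1, a phosphatase of MAP kinases, was among the 5, with 9.41, 8.11 and 8.84, and the transcription factor gene Jun (9.08, 8.23 and 7.75) and the heat shock gene Hspa1a (9.64, 9.30 and 8.52) were among the 7. Only levels were measured, and whether digestion or sorting had a part in them or in the spread of Ccn1 was not tested.

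Fbln5 had log2 signals of 8.91, 6.83 and 7.58 in replicates 2, 4 and 5. It was above its array's level on each, by 2.71, 0.51 and 1.08. Replicates 2 and 4 were 2.09 log2 units apart, a 4.25-fold difference. The mean of 7.77 ± 1.06 was 1.43 above background (limma 95% interval 0.54 to 2.33, adjusted p = 0.00992). Without replicate 2 the height was 0.79, and the height over all 3 arrays was 1.81 times that. The call held without it (limma adjusted p = 0.0314). At the 99th percentile level it did not (height 0.57, limma adjusted p = 0.405).

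Replicate 2 also held the most endothelial transcript. Of the 14 endothelial markers 13 were highest in replicate 2, against 30.5% of all genes and 43.8% of called genes. The list's median log2 signal was 7.28, 6.82 and 6.70 in replicates 2, 4 and 5. Its summed linear signal was 4674, 2083 and 2001. Of the 14, 6 were highest in replicate 2 and lowest in replicate 4 as Fbln5 was, against 13.6% of all genes. Another 7 were highest in replicate 2 and lowest in replicate 5. With arrays centred on their medians these counts were 4, against 15.1% of all genes, and 9. Ptprb, a receptor phosphatase of endothelium, was among the 6, with signals of 10.16, 7.36 and 8.16. Pecam1 (9.03, 6.87 and 6.79) and Cdh5 (8.70, 7.08 and 6.59) were among the 7. Emcn (9.22 ± 0.56) and Egfl7 (7.62 ± 0.48) were called and Robo4 did not pass. Tek, the angiopoietin receptor, was the exception to the list, with 6.41, 7.11 and 6.63. Smooth muscle markers were highest in replicate 2 in 7 of 12 cases, against the same 30.5% and 43.8%. Their summed linear signals were 26103, 21270 and 23871. The part of endothelial transcript in the spread of Fbln5, Ccn1 or any other member was not tested.

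**Figure D3:**
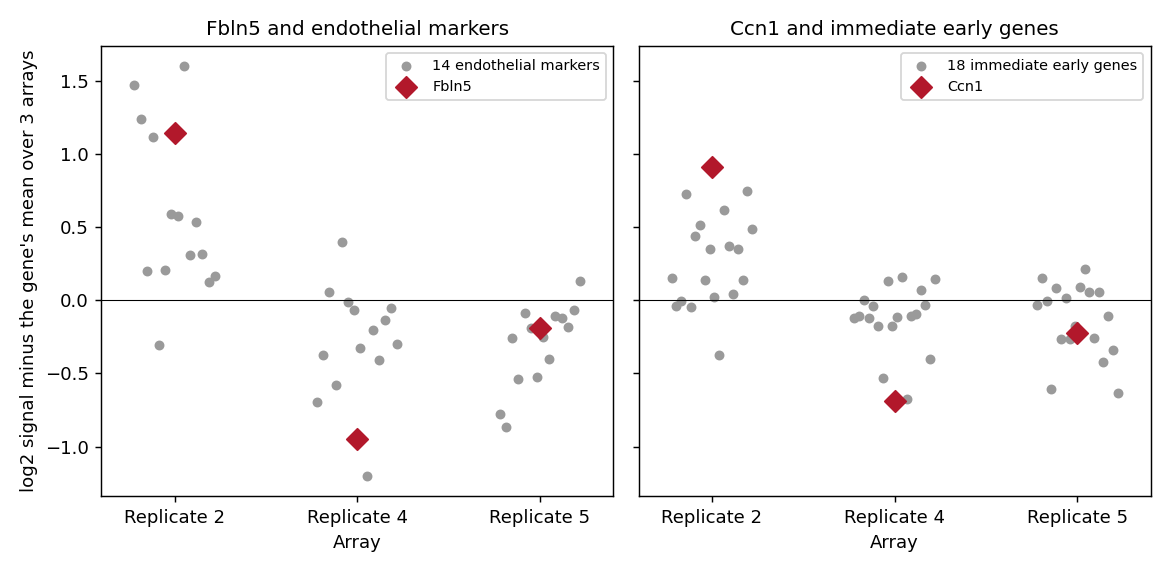
Log2 signal minus each gene's mean over 3 arrays (y axis) on the arrays of replicates 2, 4 and 5 (x axis), with Fbln5 beside 14 endothelial markers at left and Ccn1 beside 18 immediate early genes at right. Red diamonds are the members and grey points the listed genes. In replicate 2, 13 of the 14 endothelial markers and 12 of the 18 immediate early genes reached their highest signal. The share was 30.5% over all genes and 43.8% over called genes.

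Across all members 7 of 10 were highest in replicate 2, compared with 30.5% of all genes, and among the called members 5 of 7, compared with 43.8% of called genes. In 6 of 10 members replicate 2 was highest and replicate 4 lowest, an order found in 13.6% of all genes. The share of called genes with this order was not taken. The 6 were Mgp, Sparcl1, Thbs2, Ccn1, Postn and Fbln5, 2 of which were not above background. For Mgp this order rested on 0.016 log2 units between replicates 4 and 5. Other scalings also gave 6 members this order, but Sparc took the place of Mgp after quantile normalization (16.9% of all genes) and Eln did with arrays centred on their medians (15.1%). Spans over 1 log2 unit occurred in 2 members, Ccn1 and Fbln5, compared with 13.7% of called genes. The span of Fbln5 was larger than those of 99.4% of called genes and that of Ccn1 larger than those of 98.1%. Without replicate 2 no member spanned more than 1 log2 unit. The median span was 0.33 over the 7 called members and 0.51 over all called genes. Differences between single arrays have no replicate, so no test of one sample against another was possible.

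Called genes with the array profile most like these members were found by the root mean square difference of signals centred on each gene's mean over the 3 arrays. For Ccn1 the nearest were Gucy1a2 (0.013 log2 units), Nynrin (0.014) and Selenoh (0.053) among 7185 genes searched. Gucy1a2, a subunit of soluble guanylate cyclase, had signals of 10.37, 8.80 and 9.26. For Fbln5 they were Bmp2 (0.11), Cdk19 (0.12) and Rai2 (0.13). Bmp2, a bone morphogenetic protein, had signals of 8.40, 6.57 and 7.22, parallel to those of Fbln5. With 3 arrays close matches are easily found, and 47 genes lay within 0.2 log2 units of Ccn1 and 5 within 0.2 of Fbln5.

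The wider families of these proteins were read against the 37.3% of all genes called. Of 19 other matricellular genes measured out of 21 listed, 5 were called (26.3%), with a median height of -0.48. Spp1 and Bglap were not analysed here. The called genes were Tgfbi (9.30 ± 0.46), an adhesion protein induced by TGF-beta, Gas6 (8.86 ± 0.67), a vitamin K-dependent ligand of receptor kinases, and Ccn2 (8.47 ± 0.42), the connective tissue growth factor, together with Fstl1 (7.70 ± 0.26) and Ccn5 (7.24 ± 0.26). Ccn2, like Ccn1 a known YAP target, had signals of 8.90, 8.06 and 8.44 in replicates 2, 4 and 5, the same order as Ccn1. Tgfbi, with 8.80, 9.69 and 9.41, was lowest in replicate 2. Spock3, a testican, had the lowest mean height of the list (-1.40).

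Elastic fibre genes other than the members were called in 5 of 17 cases (29.4%) out of 21 listed, and Efemp2, Fbn1, Loxl2 and Fkbp10 were not analysed here. Called were Ltbp1 (8.40 ± 0.18), which anchors latent TGF-beta to fibrils, the microfibril gene Mfap2 (7.62 ± 0.22), Efemp1 (7.36 ± 0.17), which encodes fibulin 3, Ltbp3 (7.35 ± 0.20) and the lysyl oxidase relative Loxl3 (6.91 ± 0.28). Lox, the main elastin cross-linking enzyme, had a height of -0.14 and did not pass, and Mfap4 had the lowest height (-0.94). Of the 17 genes 11 were highest in replicate 5 and 5 in replicate 2, against 8143 and 6086 of all 19938 genes. With arrays centred on their medians the counts were 8 and 8. The array order of Fbln5, replicate 2 highest and replicate 4 lowest, was held by 5 of the 17, against 13.6% of all genes. It was held by 4 after quantile normalization (16.9% of all genes) and by 7 with arrays centred on their medians (15.1%). Ltbp4, a binding partner of fibulin 5 in elastic fibre assembly singled out after its values were seen, was 1 of the 5, with signals of 7.78, 6.20 and 6.92, and missed the threshold (limma adjusted p = 0.0889).

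Matrix receptor genes and the genes listed for gamma-carboxylation and calcification were mostly above background. Of 16 matrix receptor genes 12 were called (75%), including the thrombospondin receptor Cd47 (11.60 ± 0.28), Calr (11.47 ± 0.08), whose product calreticulin folds proteins and also binds thrombospondin 1 at the cell surface, and the integrin subunit Itgb1 (11.33 ± 0.24). Itgb3 (5.93 ± 0.09), the beta subunit of a vitronectin receptor, had the lowest height, -0.41. In the list for gamma-carboxylation and calcification 9 of 11 measured genes were called (81.8%), with Enpp1, Spp1 and Runx2 not analysed here. Without replicate 2 the count was 5, against 6051 of all 19938 genes. At the 99th percentile level it was 4, against 16.6% of all genes. Bmpr2, a receptor of bone morphogenetic proteins, stood at 10.45 ± 0.54. The vitamin K reductase genes Vkorc1l1 (9.03 ± 0.28) and Vkorc1 (8.45 ± 0.39) were called, and so was Ggcx (7.20 ± 0.22), the carboxylase that modifies Mgp and Gas6. Bmp2 was called (limma adjusted p = 0.0235) and Abcc6 was not.

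In the list of YAP, SRF and TGF-beta pathway genes 10 of 13 measured genes were called (76.9%), 1 of them the member Ccn1. Tead1, the DNA-binding partner of YAP, stood at 9.51 ± 0.54 and the ligand gene Tgfb3 at 8.52 ± 0.58. Yap1 itself was measured at 7.39, 7.27 and 7.32 in replicates 2, 4 and 5. Its arrays lay much closer together than those of Ccn1. Ankrd1, another YAP target, had a height of -1.39 and was under the level on every array.

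**Figure D4:**
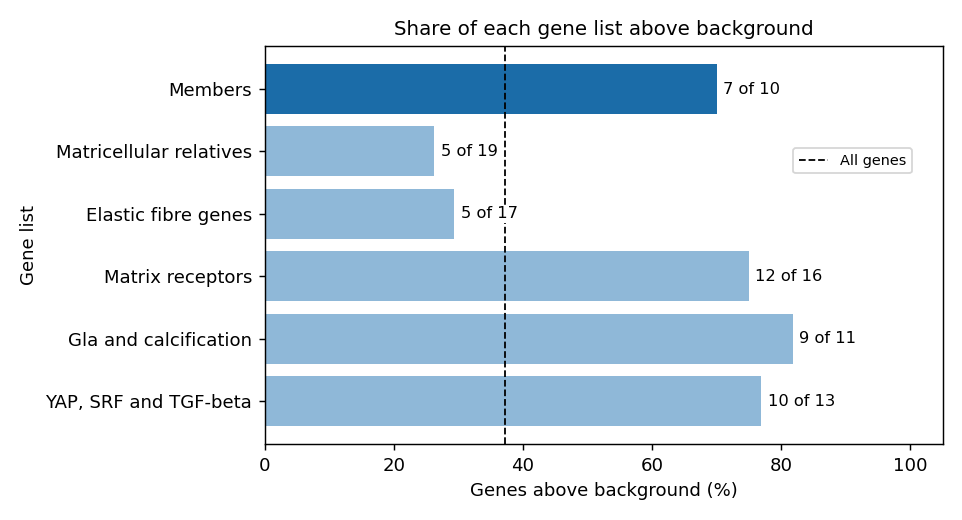
Share of measured genes above background (x axis, percent) in the 10 members and 5 lists of related genes (y axis), with bars for shares and a dashed line at the 37.3% of all genes. The members, the receptors, the carboxylation list and the YAP list lie to the right of the line, and the other matricellular (5 of 19) and elastic fibre genes (5 of 17) to the left.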

How the data were processed

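Per the labels, NuGEN reagents amplified the RNA in 1 round before biotin labelling, and samples were not pooled. The authors deposited 1 log2 signal per probe set and array, made with Affymetrix Expression Console per the submitters' processing notes. For its version, probe summary and array normalization, the sources used here give nothing. That the values are log2 follows from their range (medians 6.09, 6.11 and 6.21), so differences given as folds rest on it. The number of arrays, 3, limits the precision.

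Of 35557 probe sets, 21789 had 1 symbol in the platform annotation. The brightest probe set was taken for a gene with several. Heights over the background level were tested one-sided in limma 3.58.1 (R 4.3.3) with an intercept and a trended eBayes prior, adjusted by Benjamini-Hochberg over 19938 genes, and the script was tested on simulated data. Olfactory receptor genes passed in 2.04% of cases, vomeronasal receptor genes in 0.613% of 163 and keratin-associated protein genes in 22.7% of 44. Python 3.11.15 with pandas 2.3.3 was used for the rest.

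Members, lists, motifs and the level were chosen with earlier results of these data known. Named were all members and, per list, up to 3 called genes of greatest height and the lowest; other names were added after values were seen. Alternatives are in the closing section.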

Additional observations from a re-analysis of the deposited data

How the results depend on the processing

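The count of members above background was 5 to 9 under the other levels, probe-set rules, normalizations, variance model and filter and 7 without any 1 replicate (range 7 to 7). It was 3 with a level from keratin-associated protein genes, chosen after the data were seen, where the heights of Thbs1, Eln and Fbln5 turned to -0.61, -1.14 and -0.89 and Ccn1 was not called (0.96). Tnc turned positive with the 90th percentile of olfactory receptor genes (0.34) and with vomeronasal receptor genes (0.87), and both settings called it and Thbs2 (0.53 and 1.06). The causes were not tested. Each member has 1 probe set, so other probe-set rules moved a height only through the level. The span of Mgp was 0.10 after quantile normalization and 0.14 with arrays centred on their medians, and the order of arrays under these scalings was examined after the data were seen. The number of members spanning over 1 log2 unit was 0 to 2 when a replicate was left out.

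With the 99th percentile of olfactory receptor genes the counts called were 3 for matricellular relatives, 1 for elastic fibre, 4 for calcification, 5 for YAP, SRF and TGF-beta, 3 for fibroblast, 1 for endothelial, 1 for podocyte, 0 for macrophage, 0 for platelet and 6 for immediate early genes. At limma's unadjusted p under 0.05 the macrophage count there was 1 and the platelet count 0. Without 1 replicate the calcification count was 5 to 9, the endothelial count 4 to 12 and the platelet count 0 to 2 (1 at limma's unadjusted p under 0.05 without replicate 4). Of all 19938 genes, 6051 to 7806 were called when 1 replicate was left out. The number of all genes called was 3303 at the 99th percentile and 13410 with vomeronasal receptor genes, against 7437. No paired analysis was possible because the series holds 1 group.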
